A study of Mus musculus with 4 samples.

Results

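Sst interneurons were taken from single-nucleus RNA-sequencing matrices of mouse cerebral cortex as nuclei with at least 3 UMIs of Sst, at least 2 UMIs of Gad1 and Gad2 together, and 0 UMIs of Slc17a7 and Vip. A UMI is 1 tagged RNA molecule, so these are counts of molecules per nucleus. The members were chosen by these measured counts among nuclei with no more than 7000 genes detected and no more than 1% of UMIs from mitochondrial genes, and they number 181 of the 30515 nuclei that passed this filter, out of 30784 deposited. The values of Sst, Gad1, Gad2, Slc17a7 and Vip in these nuclei were therefore set by the gate and are described without a test.

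The mice carried a floxed Gclc allele (GCLC floxed) together with CaMKII-Cre and are called GCLC-KO. Gclc encodes the catalytic subunit of the enzyme that makes the first step of glutathione synthesis, and the CaMKII promoter drives Cre mainly in excitatory forebrain neurons, so interneurons are not the cells in which the deletion is directed. There were 4 libraries of 1 mouse each, named by age and labelled batch (3M-1, 3M-2, 6M-1, 6M-2; 2 per age at 3 and 6 months), and DAPI-positive single nuclei were sorted before 10x 3′ capture. No wild-type library was analysed here, the tissue came from cortical areas rich in rod-shaped microglia, and every comparison below is between ages or between classes of nuclei within GCLC-KO mice.

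Somatostatin interneurons arise in the medial ganglionic eminence, where Lhx6, Sox6 and Satb1 set their identity, and most of them send axons to the distal dendrites of pyramidal cells. They release GABA and, in dense-core vesicles, the peptide somatostatin, which acts on inhibitory G-protein-coupled receptors. The class is divided into Martinotti cells, non-Martinotti cells and a rare long-range type that expresses Chodl, Nos1, Npy and Tacr1.

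Sst lies on the minus strand at chr16:23889573-23890958 (GENCODE M21, GRCm38). Its promoter is known for a cAMP response element (CRE), the palindrome bound by the factor CREB through which somatostatin transcription answers to cAMP, and the 30 bases around it are shown because Sst is the gene that defines the class. The capitals mark the motif TGACGTCA, which reads the same on both strands and lies 48 to 41 bases before the RefSeq transcription start (chr16:23890874-23890903, minus strand, GRCm38.p6). The GENCODE gene reaches further upstream than that RefSeq start, so these bases lie within its span.
Sst: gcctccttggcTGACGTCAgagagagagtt
This motif was present within 250 bases upstream of the start in 508 of 32851 RefSeq promoters, or 1.55%. Of the peptide-related genes looked up in the same table, Scg2 and Chgb held it, and Cort, Npy, Nos1, Chodl and Chga did not within this window.

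The 4 libraries differed widely in how many Sst nuclei they held. The younger pair held 10 (3M-1) and 52 (3M-2) and the older pair 84 (6M-1) and 35 (6M-2), from 6802, 8750, 8111 and 6852 nuclei. Values given as 4 numbers follow this order. The UMIs in the members summed to 149771, 511510, 960104 and 409217, of 63194878, 62574289, 65894316 and 59262228 UMIs in the whole libraries. Median depth per member was 13476, 9637, 10486 and 10842 UMIs, so the library with the fewest Sst nuclei held the deepest ones. Barcodes shared between pairs of libraries numbered 12 to 19, and none of these was an Sst nucleus in both. Scrublet called 1, 6, 3 and 3 of the members doublets, and they were kept in the main comparisons.

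As a share of all nuclei, Sst nuclei made up 0.147% in 3M-1 (95% Wilson interval 0.0799 to 0.270), 0.594% in 3M-2 (0.454 to 0.778), 1.04% in 6M-1 (0.837 to 1.28) and 0.511% in 6M-2 (0.368 to 0.710). As a share of GABAergic nuclei (Gad1 and Gad2 at 2 or more UMIs together, Slc17a7 at 0), of which there were 746, 797, 994 and 653, the values were 1.34%, 6.52%, 8.45% and 5.36%. The interval of 3M-1 lay below those of the other 3 libraries on both scales, and these intervals take in counting error alone. The mean share of all nuclei was higher by 0.403 percentage points at 6 months, and that of GABAergic nuclei by 2.97, against a spread between mice of the same age of 0.345 and 3.02 (SD). Neither difference could be told from that spread (exact two-sided permutation test, p = 0.667 for both, where 2 mice against 2 cannot go below 0.333). Within batch 1 the share of GABAergic nuclei was 7.11 points higher at 6 months, and within batch 2 the difference was -1.16 points. Without 3M-1 the age difference was 0.381 points of GABAergic nuclei.

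**Figure D1:**
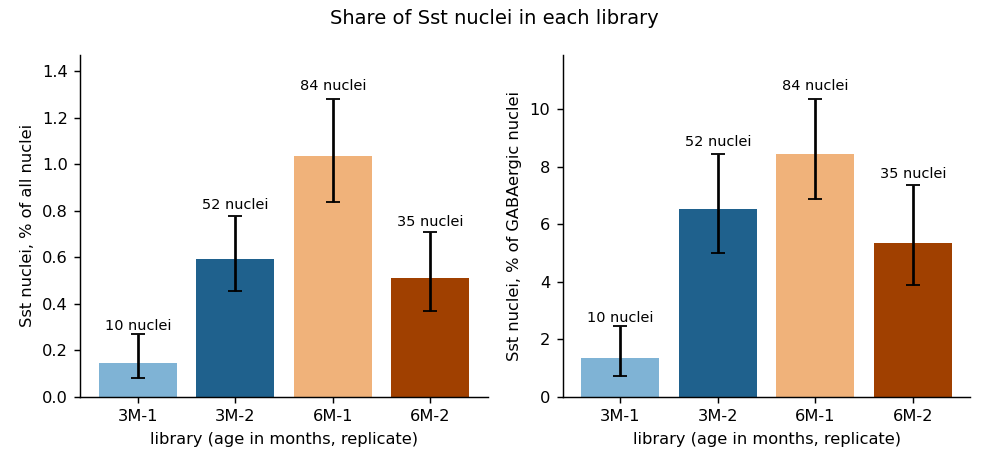
Bars give the share of Sst nuclei in each library, as percent of all nuclei (left) and of GABAergic nuclei (right), with 95% Wilson intervals as whiskers and the number of Sst nuclei above. 3M-1 lies lowest on both scales (0.147% and 1.34%) and 6M-1 highest (1.04% and 8.45%), so the 3-month mice differ from each other more than the means of the ages do.

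The gap between 3M-1 and the other libraries was also seen in the amount of Sst per nucleus. Members held a median of 3, 5, 4 and 4 Sst UMIs, with maxima of 5, 12, 12 and 18. At least 5 UMIs were found in 1, 33, 39 and 17 members (10.0%, 63.5%, 46.4% and 48.6%). The summed Sst level was 220, 600, 466 and 445 UMIs per 1000000 UMIs of the summed nuclei (CPM). The gate on Sst ties the number of nuclei to their Sst content, so fewer Sst cells and less Sst RNA per nucleus cannot be told apart here.

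The gate's threshold left nuclei with Sst on both sides. Nuclei that met the other conditions held exactly 2 Sst UMIs in 29, 37, 35 and 37 cases, 3 UMIs in 8, 16, 17 and 11, and 4 or more in 2, 36, 67 and 24. In 3M-1 the nuclei just outside, with 2 UMIs, had Lhx6 at 85.5 CPM and Grin3a at 719 CPM, against 99.3 and 637 CPM in those just inside with 3 UMIs. In 3M-2 the nuclei just outside had Grin3a at 461 and Crhbp at 57.7 CPM, against 827 and 118 CPM just inside. The nuclei just outside also held Adarb2 at 142, 205, 128 and 20.1 CPM in the 4 libraries, and those just inside at 8.27, 7.87, 198 and 23.6 CPM.

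**Figure D2:**
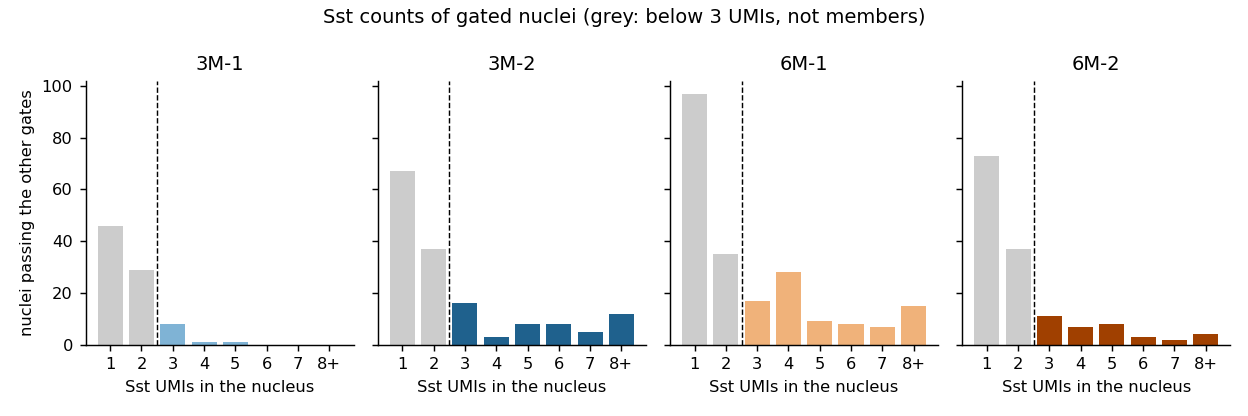
Bars give the number of nuclei at each Sst UMI count, 1 panel per library, among nuclei that met the other conditions of the gate, with the last bar holding 8 or more UMIs. The dashed line marks the threshold, grey bars left of it are not members, and in 3M-1 the counts end at 5 UMIs whereas the maxima in the other libraries are 12, 12 and 18.

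Sst UMIs were also found in nuclei that should lack the gene. Excitatory nuclei (Slc17a7 at 3 or more UMIs, Gad1 and Gad2 at 0) held at least 1 Sst UMI in 3.28%, 5.12%, 6.54% and 7.18%, and oligodendrocyte nuclei in 3.12%, 4.43%, 5.68% and 5.92%. The median depth in 3M-1 was 14143 UMIs for excitatory and 3017 UMIs for oligodendrocyte nuclei. Single Sst UMIs were thus met in types that should lack the gene, least often in 3M-1. Over whole libraries Sst stood at 6.39, 17.0, 19.0 and 15.9 CPM.

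To read Sst in nuclei chosen without it, nuclei with at least 2 UMIs of Lhx6, the transcription factor shared by interneurons of the medial ganglionic eminence, and none of Pvalb, Vip and Slc17a7 were taken, 84, 56, 83 and 70 per library. Sst was at 41.3, 157, 157 and 75.8 CPM, so the 6-month values fell within the range of the 3-month values. The log2 fold change with age was 0.36 (SE 0.38, adjusted p = 0.989). It turned with the library left out: -0.41 without 3M-1, -0.28 without 6M-1, and 1.5 without 3M-2, where each such comparison leaves 1 mouse at an age. In this comparison 0 of 9797 genes passed edgeR's test, with 509 at an unadjusted p under 0.05, and 0 passed DESeq2, while 3 passed with the batch as a block, 25 without 3M-1 and 181 without 3M-2. The library with the fewest Sst nuclei thus did not hold fewer Lhx6 nuclei than the others. Of the Lhx6 nuclei, 4, 10, 22 and 7 held 3 or more Sst UMIs, so their number is not a count of Sst cells. In nuclei gated on Lhx6 and Elfn1 (at least 1 and 2 UMIs, a gate added after the data were seen), 47, 44, 49 and 38 per library, Sst was at 78.6, 296, 301 and 145 CPM.

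The markers of the class were present in every library. Lhx6, not used by the gate, stood at 107, 86.0, 100 and 83.1 CPM and was seen in 110 of the 181 nuclei (60.8%), against 0.41% of excitatory nuclei. Crhbp, a secreted protein that binds corticotropin-releasing hormone, was at 60.1, 145, 65.6 and 58.6 CPM and was seen in 84 nuclei (46.4%), against 0.72% of excitatory nuclei. Of genes typical of the medial ganglionic eminence lineage, Sox6 was seen in 165 (91.2%), Satb1 in 159 (87.8%), the presynaptic neurexin ligand Nxph1 in 178 (98.3%) and the NMDA receptor subunit gene Grin3a in 166 (91.7%). Gad1, the main GABA-synthesizing enzyme, was at 220, 227, 242 and 152 CPM and Gad2 at 267, 258, 332 and 305 CPM.

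Markers of other cells were present and were not even across libraries. Among the 181 nuclei, Pvalb was seen in 6, the other glutamate transporter Slc17a6 in 3, Prox1 of the caudal ganglionic eminence in 4, and Adarb2, another gene of that lineage, in 27 (14.9%). Meis2 was seen in 12 (6.63%), with 1, 1, 23 and 3 UMIs in the 4 libraries. The 10 oligodendrocyte genes summed to 648, 360, 150 and 349 CPM, with Mbp the most abundant and seen in 70 nuclei. In GABAergic nuclei the same genes summed to 166, 258, 351 and 479 CPM. The 10 microglial genes, led by P2ry12, summed to 86.8, 156, 181 and 205 CPM. The 9 astrocyte genes summed to 40.1, 43.0, 47.9 and 58.6 CPM. The 8 vascular genes summed to 0, 3.91, 7.29 and 9.77 CPM and the 8 oligodendrocyte precursor genes to 6.68, 27.4, 14.6 and 70.9 CPM. The 11 excitatory genes, with Slc17a7 at 0 by the gate and Cux2 in the lead, summed to 648, 461, 460 and 459 CPM. Oligodendrocyte transcripts were thus highest in 3M-1 and lowest in 6M-1, and their part in the results below was not tested.

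Gclc, the floxed gene (chr9:77754535-77794485, plus strand), was detected in Sst nuclei of every mouse. It stood at 66.8, 35.2, 35.4 and 51.3 CPM, which rests on 10, 18, 34 and 21 UMIs, against 40.7, 33.6, 34.9 and 35.4 CPM in excitatory nuclei. Sst and excitatory nuclei did not differ past the threshold (log2 fold change 0.06, SE 0.19, adjusted p = 0.874), nor did Sst nuclei differ in this way from Vip nuclei (0.54, SE 0.26, adjusted p = 0.2) or Lamp5 nuclei (0.69, SE 0.27, adjusted p = 0.113), or 6 months from 3 months (-0.08, SE 0.42, adjusted p = 0.998). Counting at the 3′ end of transcripts, without a wild-type library, does not measure the deletion itself. Camk2a, which encodes a subunit of CaMKII, was at 180, 180, 223 and 176 CPM in Sst nuclei and at 869, 785, 649 and 737 CPM in excitatory nuclei. It was also lower than in Vip nuclei (log2 fold change -1.04, SE 0.14, adjusted p = 5.16e-05) and Lamp5 nuclei (-0.58, SE 0.16, adjusted p = 0.0207), the latter not past the threshold with DESeq2, and did not pass against Pvalb nuclei (-0.26, SE 0.22, adjusted p = 0.462).

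Sst nuclei were then set against 3 other interneuron classes and excitatory nuclei of the same mice, summing UMIs per mouse and class and keeping the mouse as a block. The Pvalb class (3 or more UMIs of Pvalb) held 15, 11, 14 and 9 nuclei, the Vip class (3 or more of Vip) 61, 62, 70 and 52, the Lamp5 class (3 or more of Lamp5 and Ndnf together) 36, 33, 53 and 32, and the excitatory class 1893, 2169, 1514 and 1810. All 3 interneuron classes were gated to 0 Sst UMIs, and the genes used by any gate were not tested. Against Pvalb nuclei, 429 of 4274 genes were higher in Sst nuclei (10.0%) and 461 lower (10.8%). Against Vip nuclei, 574 of 6951 were higher (8.26%) and 600 lower (8.63%). Against Lamp5 nuclei, 544 of 6551 were higher (8.30%) and 578 lower (8.82%). The Pvalb comparison rests on 49 Pvalb nuclei and tests the fewest genes.

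Genes of glutathione metabolism were counted in the same comparisons. Of 21 genes of glutathione synthesis and supply, 5 could be tested against Pvalb nuclei, 9 against Vip nuclei and 7 against Lamp5 nuclei, and 1 was called in each, numbers too small to set against the shares of all genes given above. Gss, glutathione synthetase, was at 20.03, 29.3, 34.4 and 36.7 CPM in Sst nuclei and at 72.8, 119, 95.1 and 126 CPM in Pvalb nuclei (log2 fold change -1.72, SE 0.28, adjusted p = 0.000213), below them in all 4 mice. Slc1a1, a carrier of glutamate and cysteine, was higher than in Vip nuclei (0.58), and Ggt7, a member of the glutamyltransferase family, higher than in Lamp5 nuclei (0.73). Of the 19 peroxidase and peroxiredoxin genes, the peroxiredoxin Prdx6 was lower than in Vip nuclei (-1.60) and the mitochondrial superoxide dismutase Sod2 higher than in Lamp5 nuclei (0.73), with 5 and 4 of the list tested. Of 21 genes of the Nrf2 pathway, 2, 7 and 5 were tested against Pvalb, Vip and Lamp5 nuclei and 1, 0 and 1 called. Sqstm1, an autophagy receptor, was higher than in Pvalb nuclei (1.46) and Lamp5 nuclei (0.59). With DESeq2 Gss and Sqstm1 passed against Pvalb nuclei, and none of these genes passed against Vip or Lamp5 nuclei. Sqstm1 against Lamp5 nuclei did not pass without TMM either.

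Of 4220 genes tested against all 3 interneuron classes, 120 were higher in Sst nuclei in every comparison (2.84%) and 66 lower in every comparison (1.56%), where DESeq2 gave 73 and 31. The former included receptors for glutamate. Grin3a, an unusual NMDA receptor subunit with low calcium permeability, was at 654, 760, 737 and 821 CPM in Sst nuclei and at no more than 189 CPM in any library of Pvalb, Vip or Lamp5 nuclei. Its log2 fold changes were 5.50 (SE 0.27), 3.47 (SE 0.16) and 2.48 (SE 0.18) against Pvalb, Vip and Lamp5 nuclei. The kainate receptor gene Grik3 was at 441, 330, 277 and 305 CPM, above all 12 values of the other classes (2.47, 3.00 and 4.20). The AMPA receptor gene Gria1 was higher by smaller amounts (1.05, 1.48 and 1.83). Of the 25 glutamate receptor genes, 9 of 21 tested were higher and 0 lower than in Pvalb nuclei, 10 of 21 higher and 5 lower than in Vip nuclei, and 9 of 21 higher and 1 lower than in Lamp5 nuclei, with medians of 0.54, -0.01 and 0.05. DESeq2 called 10 higher and 2 lower against Vip nuclei. Grm7 was higher than in Pvalb (2.48) and Lamp5 nuclei (2.44) and lower than in Vip nuclei (-0.39), the last not past the threshold with DESeq2 or without TMM.

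Among genes of other functions, Man1a, a Golgi mannosidase that trims N-glycans, was at 821, 487, 411 and 477 CPM, against at most 113 CPM in Vip, 40.5 in Lamp5 and 7.88 in Pvalb nuclei, where 3 of 4 libraries held none. Cacna2d3, an auxiliary subunit of voltage-gated calcium channels, was at 1562, 1580, 1358 and 1679 CPM and was higher by 5.28 (SE 0.22), 0.76 (SE 0.13) and 2.24 (SE 0.15). Calb1, the calcium buffer calbindin, was at 147, 131, 124 and 78.2 CPM and was higher by 2.29, 4.28 and 3.92. Pde1a, a calmodulin-dependent phosphodiesterase, Trhde, an enzyme that cleaves thyrotropin-releasing hormone, and Stxbp6, a SNARE-binding protein, were also among the 120.

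The genes lower in all 3 comparisons included Erbb4 and the GABA-A receptor subunit genes Gabrb2 and Gabrg3. Erbb4, the neuregulin receptor of interneurons, was at 601, 719, 2624 and 1432 CPM in Sst nuclei and at no less than 6793 CPM in any library of the other 3 classes (log2 fold changes -2.93, -2.72 and -2.70). Gabrb2 (-1.15, -1.14 and -1.75) and Gabrg3 (-2.45, -1.42 and -2.08) were lower in all 3 comparisons. Over the 14 subunit genes, 2 of 10 tested were higher and 6 lower than in Pvalb nuclei, 2 of 10 higher and 5 lower than in Vip nuclei, and 2 of 11 higher and 7 lower than in Lamp5 nuclei. Against Vip nuclei the counts were 3 higher and 4 lower without TMM, and 1 and 3 with DESeq2. The medians over the tested subunits were -1.25, -0.40 and -1.75, beside 0.02, 0.01 and 0.02 over all genes tested. Gabra2 was an exception, at 374, 270, 240 and 354 CPM and higher than in Pvalb nuclei (3.92) and Lamp5 nuclei (0.86). Gabrg1 was higher than in Vip nuclei (3.91, SE 0.52), at 33.4, 23.5, 35.4 and 53.8 CPM.

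**Figure D3:**
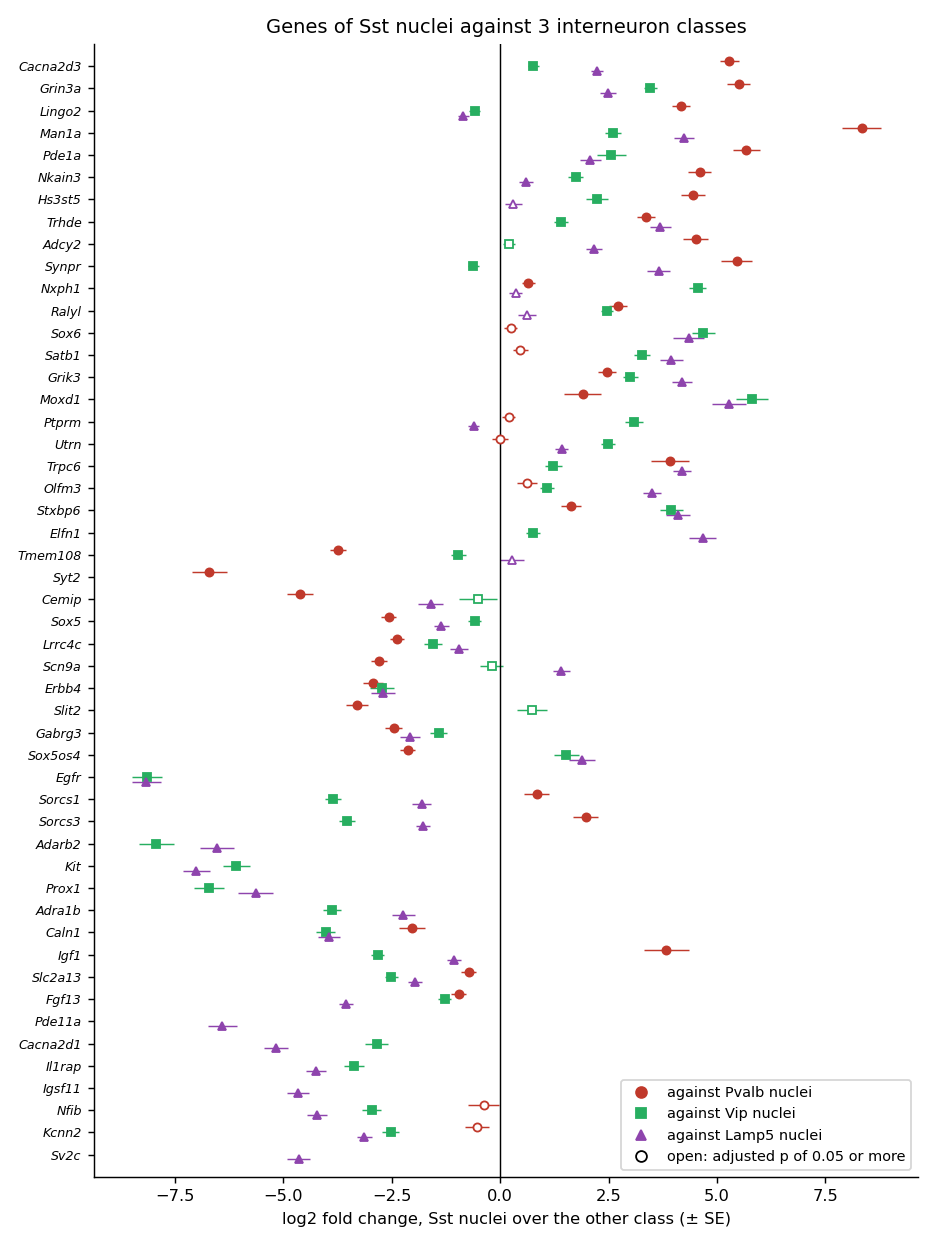
Points give the log2 fold change of Sst nuclei over Pvalb (circles), Vip (squares) and Lamp5 nuclei (triangles) with SE as bars, for genes with the smallest p in each comparison. Open symbols did not pass an adjusted p of 0.05, a missing symbol was not tested or rests on a class with 0 UMIs, and Erbb4 lies left of 0 and Grin3a, Man1a and Grik3 right of 0 in all 3 comparisons.

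Pvalb nuclei share the developmental origin of Sst nuclei. The genes with the smallest p between them, beside those above, included Synpr, a synaptic vesicle protein, and the adenylyl cyclase gene Adcy2, both higher in Sst nuclei, and Slit2, an axon guidance ligand, which was lower. Syt2, the fast calcium sensor of parvalbumin terminals, was at 6.68, 0, 2.08 and 2.44 CPM in Sst nuclei and at 190, 256, 281 and 181 CPM in Pvalb nuclei (log2 fold change -6.70, SE 0.41). Tmem108 was lower as well (-3.74). Elfn1, a postsynaptic protein that shapes facilitating input onto Sst cells, was at 167, 229, 159 and 134 CPM, while no UMI of it was found in the 49 Pvalb nuclei. Of the 12 genes of the medial ganglionic eminence list, 10 were tested against Pvalb nuclei, with 4 higher and 1 lower (3 and 1 with DESeq2 and without TMM). Lhx6 (0.75, SE 0.30, adjusted p = 0.0887), Sox6 (0.24, SE 0.16, adjusted p = 0.324) and Satb1 (0.47, SE 0.17, adjusted p = 0.0624) did not pass.

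Against Vip nuclei, which come from the caudal ganglionic eminence, 10 of 11 tested genes of the medial list were higher and 1 lower, while all 6 tested genes of the caudal list were lower. With DESeq2 8 of the medial list were higher and 5 of the caudal list lower, and without TMM 5 of the caudal list were lower. The caudal counts are a description: within Sst nuclei, in the comparison with age, 4 of the 9 caudal genes passed the filter on low counts. Caudal genes that passed through Vip nuclei could hardly come out higher. The medial counts are likewise a description. Medial genes that passed through Sst nuclei could hardly come out lower, Lhx6 being seen in 0.82% of Vip nuclei. Both limits hold for Lamp5 nuclei below. Nxph1 was at 2350, 2133, 2391 and 2483 CPM in Sst nuclei and at 127, 52.5, 135 and 76.3 CPM in Vip nuclei (log2 fold change 4.55, SE 0.20). Sox6 (4.68, SE 0.26), Satb1 (3.28, SE 0.19) and Lhx6 (5.68, SE 0.43) were higher. Adarb2, an RNA-editing enzyme relative, was at 6.68, 7.82, 118 and 90.4 CPM in Sst nuclei and between 11863 and 15436 CPM in Vip nuclei (-7.92, SE 0.40). The growth factor receptor gene Egfr (-8.14), the receptor kinase gene Kit (-6.08) and Prox1, a transcription factor of caudal interneurons (-6.71), were lower. Zeb2 was the 1 gene of the medial list that was lower (-0.98).

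Against Lamp5 nuclei, the medial list gave 9 higher and 1 lower of 11, and the caudal list 1 higher and 4 lower of 5 (8 and 1, and 1 and 3, with DESeq2). The cation channel gene Trpc6 was at 334, 379, 277 and 496 CPM in Sst nuclei and at 25.0, 13.9, 17.7 and 23.2 CPM in Lamp5 nuclei (log2 fold change 4.19, SE 0.21). Elfn1 (4.67, SE 0.31) and Sox6 (4.35, SE 0.37) were higher. Kit (-7.01), Egfr (-8.16) and Fgf13, a regulator of sodium channels (-3.55), were lower. Nxph1, so unequal against Vip nuclei, did not pass here (0.36, SE 0.15, adjusted p = 0.125).

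Of the 20 neuropeptide genes, few were abundant enough for a test in all comparisons. Npy was higher than in Pvalb nuclei (log2 fold change 3.74, SE 0.33), Vip nuclei (2.47, SE 0.22) and Lamp5 nuclei (0.68, SE 0.21, adjusted p = 0.0344). The difference from Lamp5 nuclei did not pass without TMM (adjusted p = 0.051) or with DESeq2 (adjusted p = 0.144). Crhbp was higher than in Pvalb (1.24, not past the threshold with DESeq2), Vip (4.16) and Lamp5 nuclei (6.43). Cort, which encodes the somatostatin relative cortistatin, was at 46.7, 60.6, 30.2 and 36.7 CPM. It was higher than in Lamp5 nuclei (2.56, SE 0.40) and did not pass against Vip nuclei (0.70, SE 0.31, adjusted p = 0.159). Cck, Crh, Penk, Pnoc, Scg2 and Tac2 were lower than in Vip nuclei, Scg2 not past the threshold with DESeq2 or without TMM. Crh, Penk and Tac2 had 7, 10 and 0 UMIs in the 181 nuclei and passed the filter on low counts through Vip nuclei. Their direction was thus set by the filter and is only described. In total 3 of 6, 2 of 12 and 4 of 8 tested peptide genes were higher, and 0, 6 and 1 lower, against Pvalb, Vip and Lamp5 nuclei.

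Genes that process and release peptides were called in both directions. Of 12 such genes, 3 of 8 tested were higher and 1 lower (0 with DESeq2) than in Pvalb nuclei. The former were the convertase gene Pcsk2 (log2 fold change 2.11), Ptprn (1.18) and Ptprn2 (0.87), both dense-core vesicle proteins. Against Vip nuclei 0 of 11 were higher and 4 lower, Cadps2, a factor of dense-core vesicle release, by -3.71, Pcsk1 by -1.66, Pcsk2 by -1.41 and Ptprn by -0.84. Against Lamp5 nuclei Cadps2 was the 1 gene called (-1.64), and with DESeq2 it did not pass. The 5 somatostatin receptor genes summed to 6.68, 13.7, 16.7 and 12.2 CPM in Sst nuclei, and none of them passed the filter on low counts in these 3 comparisons. Of the 16 genes of the cAMP and CREB axis, which acts on the element shown above, 2 of 10, 1 of 15 and 1 of 15 tested were higher and 1, 5 and 3 lower against Pvalb, Vip and Lamp5 nuclei, and with DESeq2 1, 0 and 0 were higher and 1, 2 and 3 lower. The phosphodiesterase gene Pde4b was higher than in Pvalb nuclei (2.39), though not past the threshold with DESeq2, and the adenylyl cyclase gene Adcy8 was lower in all 3 comparisons (-1.08, -0.90 and -0.96).

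Potassium channel genes were called in both directions in every comparison. Of 36 genes, 6 of 28 tested were higher and 14 lower than in Pvalb nuclei, 7 of 33 higher and 11 lower than in Vip nuclei, and 8 of 31 higher and 10 lower than in Lamp5 nuclei. With DESeq2 the counts were 5 and 10, 7 and 8, and 6 and 8. Kcnc1, a channel of fast-spiking cells, was at 234, 111, 116 and 112 CPM in Sst nuclei and at 591, 529, 476 and 512 CPM in Pvalb nuclei (log2 fold change -1.95, SE 0.19). Kcnd2, an A-type channel (1.41, 1.38 and 0.72), and Kcnk2, a leak channel (2.12, 1.63 and 2.24), were higher in all 3 comparisons. Kcnq5, of the M-current family, was at 40.1, 225, 258 and 242 CPM in Sst nuclei and at 1586 CPM or more in every library of Vip nuclei (-3.15, SE 0.25), with a like difference from Lamp5 nuclei (-3.03, SE 0.25). Kcnn2, a calcium-activated channel, was lower than in Vip (-2.52) and Lamp5 nuclei (-3.13).

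Among the 33 modulatory receptor genes, Sst nuclei held more Oprd1, the δ opioid receptor, than Vip nuclei (log2 fold change 4.48) and Lamp5 nuclei (2.52), and less than Pvalb nuclei (-1.01, not past the threshold with DESeq2). The muscarinic receptor gene Chrm2 was higher than in Vip (3.19) and Lamp5 nuclei (2.18). Crhr2, a receptor of the corticotropin-releasing hormone family, was at 26.7, 35.2, 33.3 and 56.2 CPM in Sst nuclei and between 1.69 and 4.92 CPM in Vip nuclei (3.23, SE 0.42), with no UMI in Pvalb or Lamp5 nuclei. The adrenergic receptor gene Adra1b was lower than in Vip (-3.88) and Lamp5 nuclei (-2.23), as was the cannabinoid receptor gene Cnr1 (-3.07 and -1.37). Of those tested, 1 of 5, 4 of 13 and 4 of 12 were higher and 2, 8 and 7 lower against Pvalb, Vip and Lamp5 nuclei (with DESeq2, 1, 3 and 4 higher and 0, 8 and 7 lower).

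Against excitatory nuclei, 1521 of 16006 genes were higher (9.50%) and 2523 lower (15.8%). This split depended on scaling: without TMM factors 2510 were higher and 1891 lower, and the median over all genes moved from -0.05 to 0.14. All 11 tested genes of the medial list were higher. Those that passed the filter through Sst nuclei could hardly come out lower, Lhx6 being seen in 0.41% of excitatory nuclei. Of the 20 immediate early genes, which neurons transcribe after activity, 14 were lower and none higher, with Arc (log2 fold change -2.81), Bdnf (-2.60), Fosb (-2.58) and Nr4a2 (-2.44) among them, while Fos did not pass (-0.75, SE 0.44, adjusted p = 0.223). DESeq2 called 9 of the 20 lower and none higher. The median of this list was -1.28, and -1.10 without TMM, where 13 were lower. Within Sst nuclei alone, in the comparison with age, 4 of these genes passed the filter on low counts. The others were tested because of their counts in excitatory nuclei, so the direction of the list was largely set by the filter and is only described. Of 17 tested glutathione genes, Slc3a2 (0.44) and Ggt7 (0.34) were higher and Gsta4, with no UMI in Sst nuclei and 1.83 CPM in excitatory nuclei, lower. With DESeq2 Slc3a2 and Ggt7 did not pass, nor did Fosb. Gsta4 did not pass without TMM and was given no adjusted p by DESeq2.

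The Sst nuclei were not uniform among themselves. Reln, the extracellular matrix protein of many Martinotti cells, was seen in 130 of 181 nuclei (71.8%), Npy in 101 (55.8%) and Calb1 in 91 (50.3%). Cort was seen in 47 (26.0%), Crhr2 in 45 (24.9%), Nos1 in 31 (17.1%), Tacr1 in 25 (13.8%), Cbln4 in 24 (13.3%) and Hpse in 23 (12.7%). Chodl, Calb2 and Pdyn were each seen in 9 nuclei (4.97%) and Crh in 7, and no UMI of Myh8, Chrna2 or Tac2 was found, 0 of 181 nuclei allowing a share of up to 1.66% with a UMI. These shares were set beside those in excitatory nuclei (7386 nuclei, median depth 12355 UMIs against 10477 in Sst nuclei). Npy was seen in 3.55% of excitatory nuclei, Hpse in 0.49% and Chodl in 0.04%. Reln was seen in 17.9%, Calb1 in 16.1% and Nos1 in 13.8%, so a single UMI of Nos1 hardly set Sst nuclei apart from excitatory ones. Etv1 was seen in 31.5% of excitatory and 11.6% of Sst nuclei, so a UMI of it does not mark Sst nuclei.

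**Figure D4:**
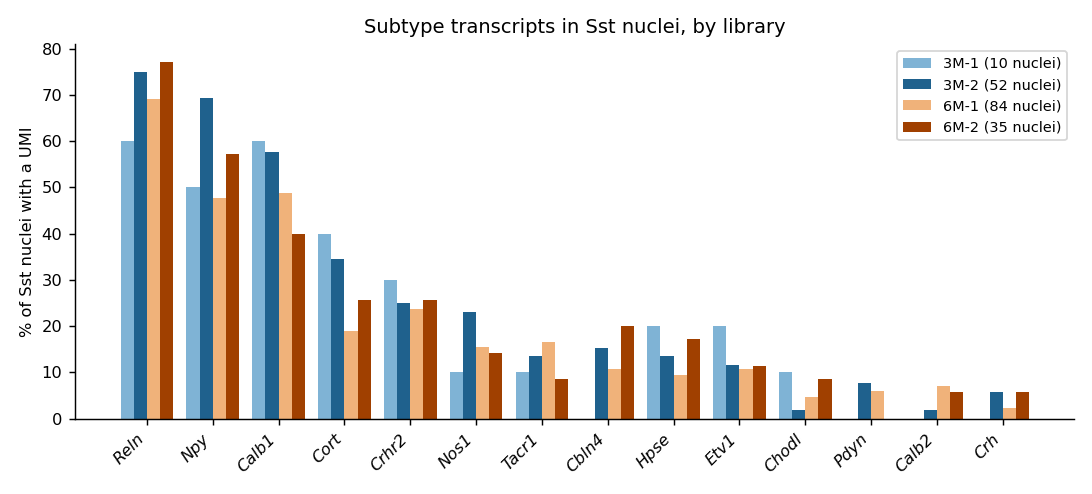
Bars give the percent of Sst nuclei with at least 1 UMI of each subtype gene, 1 bar per library, from 10, 52, 84 and 35 nuclei. Reln, Npy and Calb1 are found in 40% or more of the nuclei in every library, whereas Chodl, Calb2 and Pdyn stay at 10% or less.

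Some of these genes were found together. Of the 31 nuclei with Nos1, 28 (90.3%) also held Npy, which is 27.7% of the nuclei with Npy. Of the 9 nuclei with Chodl, 8 held Npy, 6 held Nos1 and 6 held Tacr1, while 1 held Calb1 and 1 held Reln. Chodl nuclei numbered 1, 1, 4 and 3 in the 4 libraries. The 23 nuclei with Hpse, a heparan sulfate cleaving enzyme, numbered 2, 7, 8 and 6, all held Reln and Grin3a, and none held Nos1 or Chodl. These are counts over nuclei that share libraries and are given as a description. Over all 181 members Reln was seen in 71.8%, Grin3a in 91.7%, Nos1 in 17.1% and Chodl in 4.97%. Grin3a and Chodl thus hardly set the nuclei with Hpse apart. The 53 Nos1 UMIs of 3M-1 came from 1 nucleus.

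Nuclei with at least 2 Npy UMIs could be compared with those holding none in 3 mice, 26 against 16 in 3M-2, 29 against 44 in 6M-1 and 12 against 15 in 6M-2, with 3M-1 left out for its 3 and 5 nuclei. Of 4465 genes, 8 were called (0.179%). Nos1, neuronal nitric oxide synthase (log2 fold change 5.16, SE 0.51, adjusted p = 0.000349), was at 183 against 7.83 CPM, 71.4 against 4.24 and 368 against 0 in the 3 mice. Vwc2l (2.26, adjusted p = 0.0455), Dgkb, a diacylglycerol kinase (1.21, adjusted p = 0.0455), and Sox2ot (0.98, adjusted p = 0.0455) were higher in Npy nuclei as well. Cdh13, a cadherin without a cytoplasmic domain, was lower (-1.35, SE 0.23, adjusted p = 0.0455), at 387 against 1449 CPM, 666 against 1033 and 498 against 1464, and so was Rtl4 (-1.28, adjusted p = 0.0476). Tacr1 (3.25) and Cort (1.99) did not pass, both with an adjusted p of 0.147. With DESeq2, and also without the block on the mouse, Nos1 and Cdh13 were the 2 calls, and without TMM Nos1 was the 1 call. Without 6M-1 none of the 8 calls was left, without 6M-2 there was 1 call and without 3M-2 there were 51. The number of calls thus moved with the mice, scaling, test and block, and was 47 without the filter on low counts.

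Between 3 and 6 months, 6 of 7191 genes were called in Sst nuclei, all higher at 6 months (0.0834%), and 325 had an unadjusted p under 0.05. Adarb2 (chr13:8202866-8768747) was at 6.68 and 7.82 CPM at 3 months and at 118 and 90.4 CPM at 6 months, from 1, 4, 113 and 37 UMIs (log2 fold change 3.78, SE 0.50, adjusted p = 0.00105). Erbb4 (chr1:68032186-69108059) was at 601 and 719 CPM against 2624 and 1432 CPM (1.62, SE 0.26, adjusted p = 0.00499). Pard3b, a polarity protein, was at 53.4 and 33.2 against 226 and 152 CPM (2.32, SE 0.35, adjusted p = 0.00307). Zmat4, a zinc-finger protein, was at 33.4 and 62.6 against 218 and 193 CPM (1.93, SE 0.31, adjusted p = 0.00499). The other 2 calls were unnamed transcripts. With DESeq2, which called 3 genes, Adarb2 (adjusted p = 0.0285) and Erbb4 (adjusted p = 0.0133) passed and Pard3b (adjusted p = 0.0536) and Zmat4 (adjusted p = 0.0972) did not. Without the filter on low counts the calls went both ways, with 23 genes higher and 5 lower at 6 months. In 33.5% of all genes tested both 6-month mice lay on the same side of both 3-month mice.

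The calls were recomputed without some nuclei and without single libraries. In 6M-1, 7 of 84 members held 3 or more Adarb2 UMIs, with up to 38 in a nucleus, and in 6M-2 2 of 35 did, with up to 23, while no member at 3 months did. These 9 nuclei held 103 of the 113 Adarb2 UMIs of 6M-1 and 30 of the 37 of 6M-2. Without these nuclei, a setting chosen after seeing the data, 4 genes were called, with Erbb4 (1.52, adjusted p = 0.0383), Pard3b (2.29, adjusted p = 0.0159) and Zmat4 (1.86, adjusted p = 0.0383) among them, while Adarb2, left with 1, 4, 10 and 7 UMIs, no longer passed the filter on low counts. Leaving out a mouse leaves its age with 1, whose spread is then assumed to be that of the other age. Without 6M-1, Erbb4 (1.11, adjusted p = 1), Pard3b (1.93, adjusted p = 0.548) and Zmat4 (1.84, adjusted p = 0.519) did not pass, and Adarb2 did (3.52, adjusted p = 0.0452). Among members with 5 or more Sst UMIs, of which 3M-1 held 1, edgeR called 0 of 5441 genes, with 111 at an unadjusted p under 0.05. The log2 fold changes there were 3.9 for Adarb2, 2.49 for Zmat4, 1.98 for Pard3b and 0.94 for Erbb4. Adarb2 and Erbb4 belong to the genes that are far higher in Vip and Lamp5 nuclei (Adarb2 had a log2 fold change of -6.52 in Sst over Lamp5 nuclei), and Erbb4 also in Pvalb nuclei. The 10 genes of the Vip list, with Vip, Tac2 and Crispld2 at 0 and Synpr the most abundant, summed to 875, 1042, 1107 and 1366 CPM, and the 9 genes of the caudal list, with Sp8 at 0 and Npas1 the most abundant, to 93.5, 158, 274 and 230 CPM. Prox1, which with Adarb2 marks caudal interneurons, was not found in the 9 nuclei. Lhx6 was found in 4 of the 7 in 6M-1 and in 0 of the 2 in 6M-2. Their median Sst was 3 UMIs in 6M-1, the lowest count the gate allows, and 9.5 in 6M-2. The part of other interneuron transcripts in these calls was not tested.

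**Figure D5:**
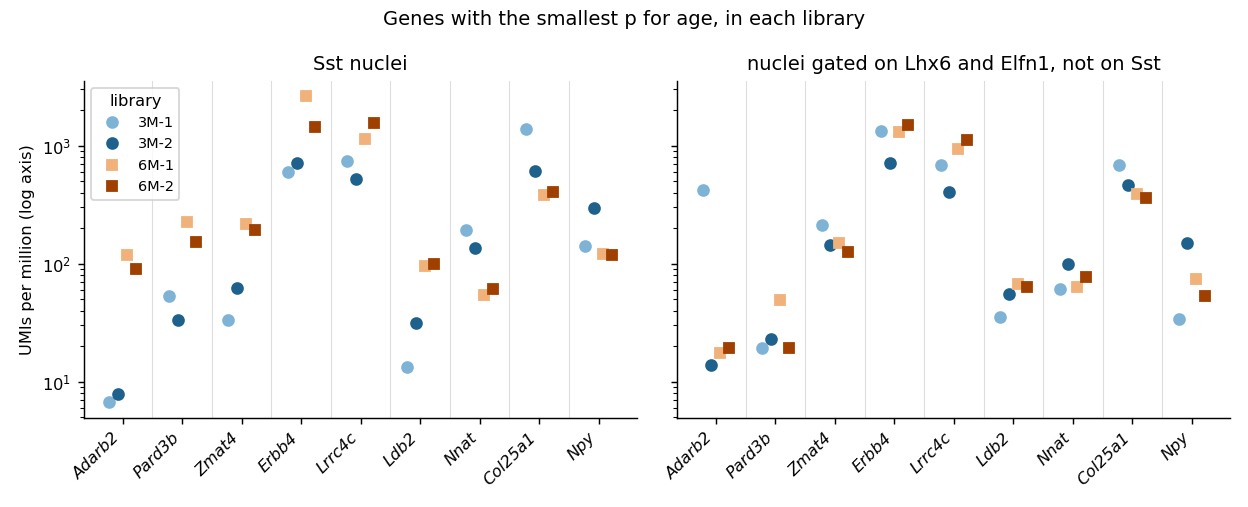
Points give CPM (log axis) per library for 9 genes with small p for age, circles at 3 months and squares at 6 months. Sst nuclei are on the left, and nuclei gated on Lhx6 and Elfn1, whatever their Sst, on the right. Of the latter, 5, 18, 27 and 10 held 3 or more Sst UMIs, so the panels can share nuclei. For Adarb2, Erbb4, Pard3b and Zmat4 both 6-month points lie above both 3-month points on the left, and for none of the 4 do they on the right.

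In nuclei gated on Lhx6, with Sst not used by the gate, the same genes gave other values. Of these nuclei, 4, 10, 22 and 7 held 3 or more Sst UMIs, so they can overlap the Sst nuclei. As a class they differed from Sst nuclei: Erbb4 had a mean of 4943 CPM there, against 1344 in Sst and 8964 in Pvalb nuclei. Their values with age are thus not a repeat of the comparison in Sst nuclei. Adarb2 had a log2 fold change of -1.26 (adjusted p = 0.962), Pard3b 0.61 (adjusted p = 0.948), Zmat4 0.26 (adjusted p = 0.962) and Erbb4 -0.02 (adjusted p = 0.998). In the Lhx6 and Elfn1 nuclei Adarb2 was at 422, 13.9, 17.5 and 19.1 CPM, highest in 3M-1, and Erbb4 at 1335, 708, 1314 and 1491 CPM. In the Lhx6 nuclei, as given above, no gene passed edgeR's test with age in the main setting.

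Other genes with the smallest p did not pass and are given as values. Ldb2 was at 13.4, 31.3, 94.8 and 100 CPM in the 4 libraries (log2 fold change 1.86, SE 0.39, adjusted p = 0.0762). Lrrc4c, a netrin-G ligand, was at 748, 522, 1131 and 1574 CPM (1.12, SE 0.24, adjusted p = 0.0967). Nnat, neuronatin, was at 194, 135, 54.2 and 61.1 CPM (-1.44, SE 0.30, adjusted p = 0.0762), with both 6-month values below the 3-month ones. Col25a1, a transmembrane collagen, was at 1382, 608, 383 and 406 CPM (-1.29, SE 0.29, adjusted p = 0.113). Npy was at 140, 299, 120 and 117 CPM (-1.0, SE 0.29, adjusted p = 0.432), Cort at -0.79 and Crhbp at -0.88 on the log2 scale, neither past the threshold. The 7 tested neuropeptide genes had a median of -0.78, beside -0.01 over all genes, with none called, and all 7 were below 0. Summed over the list of 20, Sst included, the level was 654, 1503, 937 and 877 CPM, with the 6-month values between the 3-month ones. The same was true of Npy in all GABAergic nuclei, at 29.0, 78.2, 57.0 and 44.7 CPM.

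Lists for stress and for the floxed pathway were counted with age as well, where 0.0834% of all genes were called, so a count of 0 in a list of this size says nothing particular about it. None passed of 9 tested genes of glutathione synthesis and supply (median log2 fold change -0.11), 5 peroxidase and peroxiredoxin genes (-0.21), 8 of the Nrf2 pathway (0.02), 10 of iron handling and ferroptosis (-0.15), 7 of the integrated stress response (0.15), 6 of p53 and DNA damage (-0.01), 8 of heat shock (0.04) and 4 immediate early genes (0.10). None of 10 GABA-A subunit genes (0.33), 21 glutamate receptor genes (-0.04) or 32 potassium channel genes (-0.08) passed. The oligodendrocyte list, whose level differed between libraries as given above, had a median of -1.03 with none of 7 called.

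Whether the age difference in Sst nuclei differed from that in another class was tested as an interaction. Against Pvalb nuclei 5 of 5371 genes were called (0.0931%), with Erbb4 (1.32, adjusted p = 0.00738) among them, while DESeq2 called 0, with 29 at an unadjusted p under 0.05. Against excitatory nuclei 34 of 17316 were called (0.196%), 14 with a higher and 20 with a lower age difference in Sst nuclei, and DESeq2 called 4. Pard3b (2.32), Erbb4 (1.55), Adarb2 (3.18), Ldb2 (1.99) and Lrrc4c (1.18) had a higher one, and Man1a (-1.47), Col25a1 (-1.20) and Hs3st5 (-1.39) a lower one. Over all calls the split turned with the setting. It was 15 higher and 22 lower without TMM, 20 and 13 without doublets, and 1 and 8 with Sst at 5 or more UMIs. Without the nuclei rich in Adarb2, the Adarb2 value against excitatory nuclei was 0.22 and did not pass. Man1a in Sst nuclei was at 821, 487, 411 and 477 CPM, and in excitatory nuclei at 57.5, 68.3, 116 and 137 CPM.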

How the data were processed

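Per the matrix headers, the authors' count matrices were made with Cell Ranger 7.0.0. The labels name mm10. The deposited values are unnormalized UMI counts, and depth is the UMI total of each library. Nuclei were gated and UMIs summed per mouse and class. Sums were compared with edgeR 4.0.16 (TMM, filterByExpr, quasi-likelihood test, Benjamini-Hochberg over all genes tested, threshold 0.05), with SE taken as the log2 fold change over the root of F. Gate genes were not tested. CPM divide a count by the UMI total of its class sum. Class comparisons had the mouse as a block. Doublets were called with Scrublet (scanpy 1.11.5). The fitting code was tested on simulated data. Genes named were the 10 per direction with the smallest p, at least 40 UMIs in the higher group and 1 direction in every mouse, plus members of 35 lists, and not every such gene is reported here. The members and lists were chosen with earlier results of these data known. Alternatives were DESeq2 1.42.0, no TMM, no filter, doublets left out, other Sst thresholds, thinning to 5000 UMIs and each mouse left out. Libraries of an age differ in mouse and in labelled batch, so p-values measure the spread between these libraries. The test shares this spread over genes. Against excitatory nuclei the p-values lie close to the normal tail of the log2 fold change over SE. They rest there on a spread pooled over genes more than on each gene's own. Same-numbered mice carry the same batch number, which equals the replicate number, and the paper does not say whether they were handled together. With 2 pairs, the correlation of their deviations in Sst nuclei was -0.004. Coordinates come from GENCODE M21, promoters from RefSeq.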

Additional observations from a re-analysis of the deposited data

Results flagged for a closer look

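The age difference in Sst nuclei differed from that in another class by the interaction test for the genes below, each value being the log2 fold change with age in Sst nuclei minus that in the other class (edgeR, adjusted p). Against Pvalb nuclei these were Erbb4 (1.32, adjusted p = 0.00738), Adarb2 (5.49, adjusted p = 0.0311) and Nos1 (-8.07, adjusted p = 0.0311). The Nos1 value rests on Pvalb nuclei at 3 months with 0 UMIs and on 1 nucleus of 3M-1 with 53 UMIs.

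Against excitatory nuclei the difference was higher in Sst nuclei for Pard3b (2.32, adjusted p = 1.16e-07), Erbb4 (1.55, adjusted p = 3.12e-06), Adarb2 (3.18, adjusted p = 4.67e-06), Ldb2 (1.99, adjusted p = 0.000447), Tmtc2 (1.29, adjusted p = 0.000918), Cdh13 (1.12, adjusted p = 0.00571), Lrrc4c (1.18, adjusted p = 0.0073), Foxp2 (10.39, adjusted p = 0.0167), Tmem196 (2.99, adjusted p = 0.0192) and Rgs6 (1.04, adjusted p = 0.0473). Foxp2 had no UMI in Sst nuclei at 3 months, so its value is no fold. It was lower in Sst nuclei for St18 (-2.59, adjusted p = 1.03e-06), Man1a (-1.47, adjusted p = 3.12e-06), Hs3st5 (-1.39, adjusted p = 2.26e-05), Alk (-1.29, adjusted p = 0.00016), Zbtb20 (-1.38, adjusted p = 0.000253), Npsr1 (-2.50, adjusted p = 0.000447), Fgf1 (-1.30, adjusted p = 0.00048), Col25a1 (-1.20, adjusted p = 0.000616), Adgrg6 (-3.12, adjusted p = 0.000616) and Sox2ot (-1.20, adjusted p = 0.0014). St18 is also abundant in oligodendrocytes, whose genes stood highest in Sst nuclei of 3M-1 as given above. Their part in these values was not tested. The adjusted p against excitatory nuclei rests on a spread pooled over genes, with 2 residual degrees of freedom for each gene.

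Of the 3 genes named against Pvalb nuclei, 0 passed with DESeq2, 0 without 6M-1 and 1 with Sst at 5 or more UMIs. Without the nuclei holding 3 or more Adarb2 UMIs, Adarb2 could not be tested against Pvalb nuclei, and against excitatory nuclei its value was 0.22 and 17 of the 20 genes passed, the others being Adarb2, Foxp2 and Tmem196. Of the 20 against excitatory nuclei, 2 of the 13 to which DESeq2 gave an adjusted p passed with it, 5 passed without 6M-1 (11 without 3M-1, 15 without 3M-2 and 13 without 6M-2) and 1 with Sst at 5 or more UMIs.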

How the results depend on the processing

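Not every alternative was run on every comparison: the Npy comparison was not run without doublets or with another Sst threshold, and the interactions, which have the mouse as a block, were not run with a further term for the batch. The calls with age in Sst nuclei were 6 in the main setting, 3 with DESeq2, 28 without the filter on low counts, 0 with Sst at 5 or more UMIs (where 3M-1 held 1 nucleus) and 4 to 133 with 1 mouse left out (38 without 3M-1, 133 without 3M-2). Against Pvalb nuclei 890 calls became 526 with DESeq2, 551 with Sst at 5 or more UMIs and 670 to 805 with 1 mouse left out. Against Vip nuclei 1174 became 721 with DESeq2 and 900 to 1116 with 1 mouse left out. Against Lamp5 nuclei 1122 became 690 with DESeq2 and 811 to 1156 with 1 mouse left out. Against excitatory nuclei 4044 became 2466 with Sst at 5 or more UMIs and 2905 to 3776 with 1 mouse left out.

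The interaction with age against Pvalb nuclei gave 0 calls with DESeq2 (29 at an unadjusted p under 0.05), 8 without doublets, 3 with Sst at 5 or more UMIs and 4 to 32 with 1 mouse left out, and that against excitatory nuclei 4 with DESeq2, 9 with Sst at 5 or more UMIs and 16 to 74 with 1 mouse left out. The Npy comparison gave 2 calls with DESeq2, 1 without TMM, 47 without the filter and 0 to 51 with 1 mouse left out. Sst in Lhx6 nuclei ranged from -0.41 to 1.5 with 1 mouse left out, and the share differences from 0.140 to 0.665 and from 0.381 to 5.56 percentage points. Gclc changed sign around 0. With age it moved to 0.26 with Sst at 5 or more UMIs, 0.24 without 3M-1 and 0.18 without 6M-1. Against excitatory nuclei it moved to -0.00149 without the filter, -0.16 with Sst at 5 or more UMIs, -0.0075 without 3M-1 and -0.034 without 6M-2. In the interaction against excitatory nuclei it was 0.20, 0.15 and 0.20 in the settings given for age. With 1 mouse left out these values ranged from -0.65 to 0.24, from -0.034 to 0.16 and from -0.29 to 0.20. The interaction against Pvalb nuclei (-1.43) ranged from -2.04 to -0.59. None of these Gclc values passed the test. The causes were not tested. Over the named genes, 1278 of 1426 values kept their direction and side of the threshold, 113 no longer passed, 25 newly passed and 10 changed sign.

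With the labelled batch as a replicate block, 7 genes were called with age and Sst in Lhx6 nuclei was 0.43. Without the block on the mouse, the Npy comparison gave 2 calls and the class comparisons 872 (Pvalb), 1067 (Vip), 1045 (Lamp5) and 3301 (excitatory). The mean of the within-batch differences in share was 0.403 and 2.97 points. Leaving out nuclei with 3 or more Adarb2 UMIs and gating on Lhx6 with Elfn1, and the Npy comparison without TMM or the filter, were chosen after seeing the data. The Calb2, Hpse, Chodl and Crh subgroups could not be fitted, with under 3 mice holding 10 nuclei on both sides. Depth limits the whole account: 10 nuclei of 3M-1 carry 149771 UMIs, and 10 CPM there is between 1 and 2 UMIs.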

Other observations

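Further gene groups were counted in the comparison with excitatory nuclei, where 9.50% of all genes were higher and 15.8% lower. Of 16 tested genes of iron handling, 3 were higher and 0 lower, the transferrin receptor gene Tfrc (log2 fold change 0.52), Alox5 (2.28) and Aifm2, a ferroptosis suppressor (2.08). Of 18 of the integrated stress response, 3 were higher and 0 lower, Asns (0.80), the chaperone gene Hspa5 (0.61) and the kinase gene Eif2ak4 (0.40). With DESeq2 Hspa5 and Eif2ak4 did not pass, and without TMM 4 genes of iron handling and 5 of the stress response were higher. Of the other stress lists, 3 of 19 tested genes of the Nrf2 pathway were higher and 2 lower, 3 of 17 peroxidase and peroxiredoxin genes higher and 1 lower, 2 of 12 heat shock genes higher and 1 lower, and 1 of 14 genes of p53 and DNA damage higher and 3 lower. With DESeq2 these counts were 1 and 2, 0 and 1, 1 and 0, and 0 and 0, and without TMM they were 4 and 2, 3 and 1, 5 and 0, and 2 and 0. Of the 12 peptide processing genes, 2 were higher and 5 lower. The amidating enzyme gene Pam (1.33) and Pcsk1n (0.67) were higher, and Cadps2 (-4.38), Pcsk2 (-2.59), Syt10 (-1.58), Cpe (-1.28) and Pcsk1 (-0.93) lower. These values stand beside a shift of the median over all genes of -0.05 with TMM and 0.14 without.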
